A study of Mus musculus with 13 samples.

Results

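The response of mouse epidermal keratinocytes to 1 day of topical Aldara was taken over both genotypes of the series together, as the treatment term of an additive model in which genotype was the second factor. The 6 Aldara libraries were set against the 7 untreated libraries, which are all 13 libraries of the series. A single log2 fold change per gene thus stands for the part of the response that the genotypes share, with 1 log2 unit equal to a factor of 2. Of the 25746 genes in the count table, 16051 had enough counts to be tested.

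Interfollicular keratinocytes, the cells of the epidermis between the hair follicles, had been sorted by FACS from C57/BL6 mice and read by bulk RNA sequencing. Every mouse carried floxed Il12rb2 alleles. Floxed controls had genotype Il12rb2fl/fl without Cre and gave 3 untreated and 3 Aldara libraries. The Il12rb2-deleted mice were K14Cre/+ Il12rb2fl/fl, in which the promoter of keratin 14, active in basal keratinocytes, drives Cre, and they gave 4 untreated and 3 Aldara libraries. Treated skin had received Aldara, a cream with 5% imiquimod, for 1 day, and the other skin was naive rather than given a vehicle cream, so that cream and imiquimod cannot be told apart. The labels give no age, and vehicle-treated mice and mice with Cre alone were not analysed here. They number the replicates without stating that each came from its own animal, so that p-values measure how far these samples spread, and that spread may be technical.

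Imiquimod activates Toll-like receptor 7, and its application to mouse skin is widely used as a model of psoriasis-like inflammation. Keratinocytes of the basal layer are anchored by hemidesmosomes, divide, and move upward into the suprabasal layers, where keratin and desmosome proteins are exchanged and barrier lipids are made. In inflamed epidermis, keratinocytes are known to speed up growth and division, to shorten differentiation, and to release antimicrobial proteins and cytokines in answer to interleukin-17 and interleukin-22.

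Total counts ran from 5830034 to 22232478 per library, and the first principal component (27.3% of the variance) set every Aldara library apart from every untreated one. Il12rb2-deleted Aldara replicate 1 lay farthest along it and had the lowest median Spearman correlation with the other libraries, 0.847. The second component (20.2%) spread the untreated libraries, from -113 to 107, more than the Aldara libraries, from -17.3 to 33.8. The predicted gene Gm10800 took 5.21% to 14.2% of the counts in 3 untreated libraries (floxed control replicate 2, Il12rb2-deleted replicates 1 and 2) and at most 2.22% in any Aldara library. Counts of list members called are also given without these 3 libraries where a count above 3 moves by over 1.5 times. Counts of 3 or fewer moved by as much in many lists when a single library was left out, and carry little weight. Among markers of other cells, the summed level of 19 fibroblast genes ran from 1176 to 2614 CPM (CPM are counts scaled to a common library size with TMM factors) in untreated and from 84.0 to 446 CPM in Aldara libraries. The sum of 19 sebaceous gland cell genes went the other way, from 1034 to 5722 CPM untreated and 4874 to 9837 CPM after Aldara. In bulk samples such as these, fewer cells of a type and less RNA per cell cannot be told apart. Levels of single genes are given from here on as the median over the 7 untreated or the 6 Aldara libraries, with the lowest and the highest library in parentheses. The basal keratins that define keratinocytes were present in every library, Krt5 at 9991 CPM (6451 to 17087) untreated and 3785 CPM (2765 to 5341) after Aldara, and Krt14 at 21471 CPM (11523 to 32629) and 8118 CPM (6422 to 12647).

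Il12rb2, the floxed gene, codes for the interleukin-12 receptor subunit that relays the signal and lies on chromosome 6 from 67291318 to 67376188, minus strand (GRCm38, ENSMUSG00000018341). It was read at 22.7 CPM (8.52 to 78.8) in untreated and 1.81 CPM (0 to 8.14) in Aldara libraries, so that the treatments did not overlap over the pooled genotypes. The shared term was -3.94 (SE 0.59, edgeR adjusted p = 0.000189). Because the untreated libraries of the Cre genotype still held the transcript, the genotype labels are checked only in part by a count over the whole gene. Its partner Il12rb1 stood at 0.257 CPM (0 to 0.961) untreated and 3.49 CPM (0 to 11.97) after Aldara, at very low counts, and rose by 3.99 (SE 1.21, edgeR adjusted p = 0.0232). That call was lost without floxed control Aldara replicate 3 (adjusted p = 0.0587) or Il12rb2-deleted Aldara replicate 1 (0.0734).

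Aldara was accompanied by a change in 4063 genes in the shared term (25.3% of those tested), of which 2156 were higher (13.4%) and 1907 lower (11.9%), with edgeR's quasi-likelihood test at an adjusted p under 0.05. The median log2 change was -1.33 among genes called lower and 0.93 among genes called higher. Genes called lower also had fewer counts, at a median of 4.98 against 5.79 average log2 CPM, and a larger median SE, 0.29 against 0.20. A gene with a larger SE needs a larger change to pass. The part of this in the larger falls was not tested. More than 2-fold, 949 genes rose and 1297 fell, and more than 8-fold, 53 rose and 215 fell. Over all tested genes the median change was -0.15, which is the level against which list medians are read. For 1009 genes (6.29%) every Aldara library lay above every untreated library, and for 880 (5.48%) every one lay below. Without the 3 libraries rich in Gm10800, 2487 genes were called, 1331 higher and 1156 lower. Without the 7 libraries in which Gm10800 passed 1% of counts, which leaves 2 Aldara and 4 untreated libraries, 52 were called, 3 higher and 49 lower.

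Pooling the genotypes narrowed the error of a gene's fold change. The median SE was 0.34 in the shared term, against 0.50 in floxed control and 0.47 in Il12rb2-deleted libraries taken as contrasts of their own. Alone, 1132 genes (7.05%) passed in the floxed control and 2489 (15.5%) in the Il12rb2-deleted libraries. Of the 4063 shared calls, 942 also passed in both genotypes, 175 in the floxed control only, 1389 in the Il12rb2-deleted libraries only, and 1557 in neither, of which 836 were higher and 721 lower. Each of the 4063 had the same sign in both genotypes. Choosing genes by a term fitted to the libraries of both genotypes favours equal signs, so that this is no separate check of agreement. The test of the difference between the genotypes' effects, the interaction, called no gene (0%) by edgeR, where 539 genes had an unadjusted p under 0.05, no gene by limma voom and 6 by DESeq2. The counts of the single genotypes therefore do not show that either one responded to more genes.

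**Figure D1:**
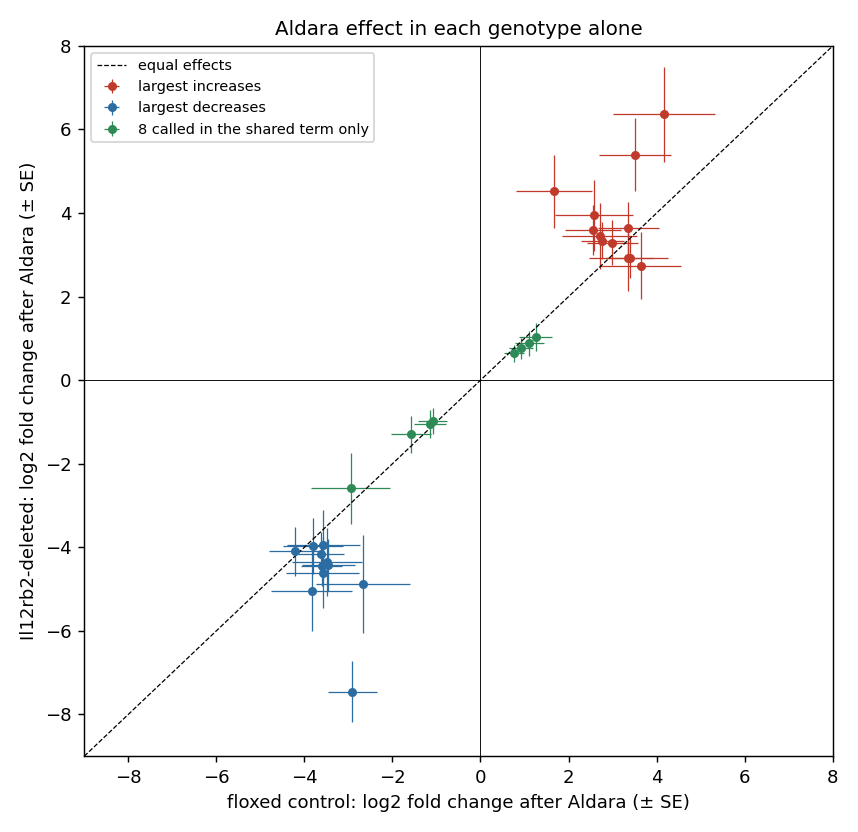
Log2 fold change after Aldara in the floxed control libraries (horizontal axis) and in the Il12rb2-deleted libraries (vertical axis), with SE bars, for the 12 largest increases, 11 of the 12 largest decreases and 8 genes called in the shared term alone. All 31 points lie in the lower left or upper right, with the same sign on both axes. For the 23 largest changes this was fixed by choosing genes with no overlap between treatments. For the other 8 it was favoured by choosing them on the shared term. Ccdc80, at -2.91 and -7.45, is the point farthest from the dashed line of equal effects.

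The 8 genes with the smallest p among those called only in the shared term were Surf4, Ran, Rars2, Utp4, Ntf3, Hs3st3b1, Stoml1 and Nlrp10. Each narrowly missed the threshold in both genotypes, with adjusted p from 0.0501 to 0.067, among them Ran, the GTPase that gives nuclear transport its direction. Ran was read at 263 CPM (128 to 446) untreated and 522 CPM (384 to 714) after Aldara, and rose by 0.99 (SE 0.22, edgeR adjusted p = 0.00297), where the genotypes alone gave 1.11 (adjusted p = 0.0527) and 0.88 (0.0585). Ntf3, the neurotrophin-3 gene, went from 14.1 CPM (11.3 to 21.5) to 5.01 CPM (4.296 to 10.1) with no overlap, and fell by 1.43 (SE 0.30, edgeR adjusted p = 0.00257). Surf4, a cargo receptor of the endoplasmic reticulum, rose by 0.70, and Utp4, a factor for the small ribosomal subunit, by 1.14. Hs3st3b1, a heparan sulfate sulfotransferase, fell by 2.76, Nlrp10, an epidermal member of the NLR family, by 1.03, and Stoml1 by 1.09. The call of Stoml1 was lost without the 3 libraries rich in Gm10800 (adjusted p = 0.0739).

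To be ranked by size of change, a gene needed treatments that did not overlap and a mean log2 CPM of 3 or more, so that some genes with lower counts, given below, had larger values. Among the 12 largest increases so defined, several were lipid enzymes and transporters. Lcn2, the secreted antibacterial siderophore-binding protein lipocalin 2, rose by 5.36 (41.2-fold; SE 0.86, edgeR adjusted p = 0.000311), from 18.2 CPM (1.86 to 130.5) to 1258 CPM (315 to 2269). Pctp, the phosphatidylcholine transfer protein, went from 2.18 CPM (0 to 22.8) to 63.02 CPM (31.7 to 157) and rose by 4.34 (SE 0.63). Both genes varied widely among untreated libraries, and all Aldara libraries lay above them. Elovl3, an elongase of very long fatty acids, went from 39.2 CPM (4.1997 to 109) to 527 CPM (449.5 to 735) (3.50, SE 0.45). Gk (glycerol kinase) and Gpd1 (glycerol-3-phosphate dehydrogenase), the enzymes that supply the glycerol backbone of triglycerides, rose by 3.08 (SE 0.33) and 3.14 (SE 0.35). Gk stood at 25.2 CPM (8.85 to 54.7) untreated and 239 CPM (126 to 299.9) after Aldara, and Gpd1 at 6.53 CPM (2.16 to 10.5) and 51.9 CPM (35.3 to 73.8). For both enzymes every Aldara library of either genotype lay above every untreated one. Slc7a5, the light chain of the main carrier of large neutral amino acids, rose by 3.15 (SE 0.38), from 4.75 CPM (4.01 to 18.9) to 49.9 CPM (36.9 to 164). The other members were the lipase Pnpla5 (3.16), the serine protease Prss12 (3.19), Mettl7b (3.29), Clstn3 (3.13), Sh2d5 (3.11) and Myorg (3.10), with edgeR adjusted p from 0.000147 to 0.00441.

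The 12 largest decreases chosen in the same way held keratins, a desmosomal cadherin and a cytokine receptor chain. Krt10, the suprabasal keratin, went from 2024 CPM (956 to 2488) to 99.05 CPM (22.4 to 169) and fell by 4.15 (SE 0.40, edgeR adjusted p = 1.12e-05). Krt77, a further type II keratin of the epidermis, went from 753 CPM (402 to 1160.3) to 55.96 CPM (15.04 to 66.7) and fell by 4.05 (SE 0.34, adjusted p = 4.70e-06). Dsg1a, a desmoglein of suprabasal cells with a near-identical copy in Dsg1b, went from 498 CPM (252 to 537) to 29.997 CPM (10.3 to 48.96) and fell by 3.91 (SE 0.37). For each of these the highest Aldara library lay well under the lowest untreated one. Igfbp3, a binding protein of insulin-like growth factors, fell by 3.96 (SE 0.45), from 1480.1 CPM (435 to 2224) to 78.7 CPM (34.1 to 182). Il20ra, a receptor chain for interleukins 19, 20 and 24, fell by 3.94 (SE 0.57), from 68.1 CPM (30.1 to 93.8) to 3.78 CPM (0.205 to 9.53). Sema3d, a secreted guidance protein, went from 126 CPM (25.6 to 172) to 5.46 CPM (0 to 11.4), a log2 difference of -4.46 (SE 0.67). Ccdc80, a matrix protein, fell by 4.79 (SE 0.78), together with the fibroblast markers, whose part in the result was not tested. Calm5, a calmodulin-like gene of epidermis, Skint6, Serpinb7 and Lypd6b were also in the set, at -4.12, -3.89, -3.79 and -3.76, with edgeR adjusted p from 3.89e-05 to 0.00384.

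**Figure D2:**
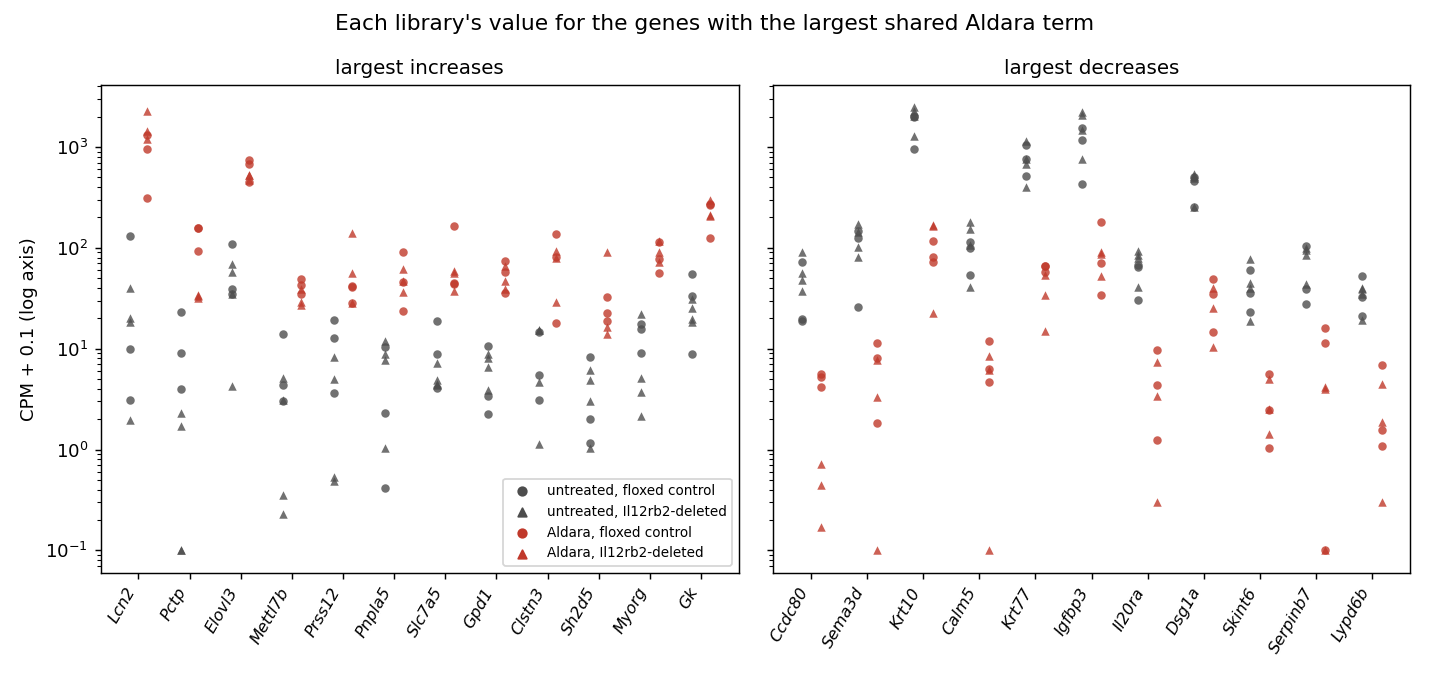
CPM plus 0.1 on a log axis in each of 13 libraries (circles floxed control, triangles Il12rb2-deleted; grey untreated, red Aldara) for the 12 largest increases and 11 of the 12 largest decreases of the shared term, which were chosen for having no overlap. Circles and triangles mix within a treatment for most genes; for Ccdc80 the 3 Il12rb2-deleted Aldara libraries sit under the 3 floxed control ones.

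Gene groups were read from 61 lists, of which 1200 symbols were tested. Members called higher or lower are set against 13.4% and 11.9% of all tested genes, and list medians against -0.15. The fullest shares of members called higher were in lists of growth, protein turnover, energy and DNA synthesis, and the fullest shares called lower were those of desmosome and Skint genes.

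**Figure D3:**
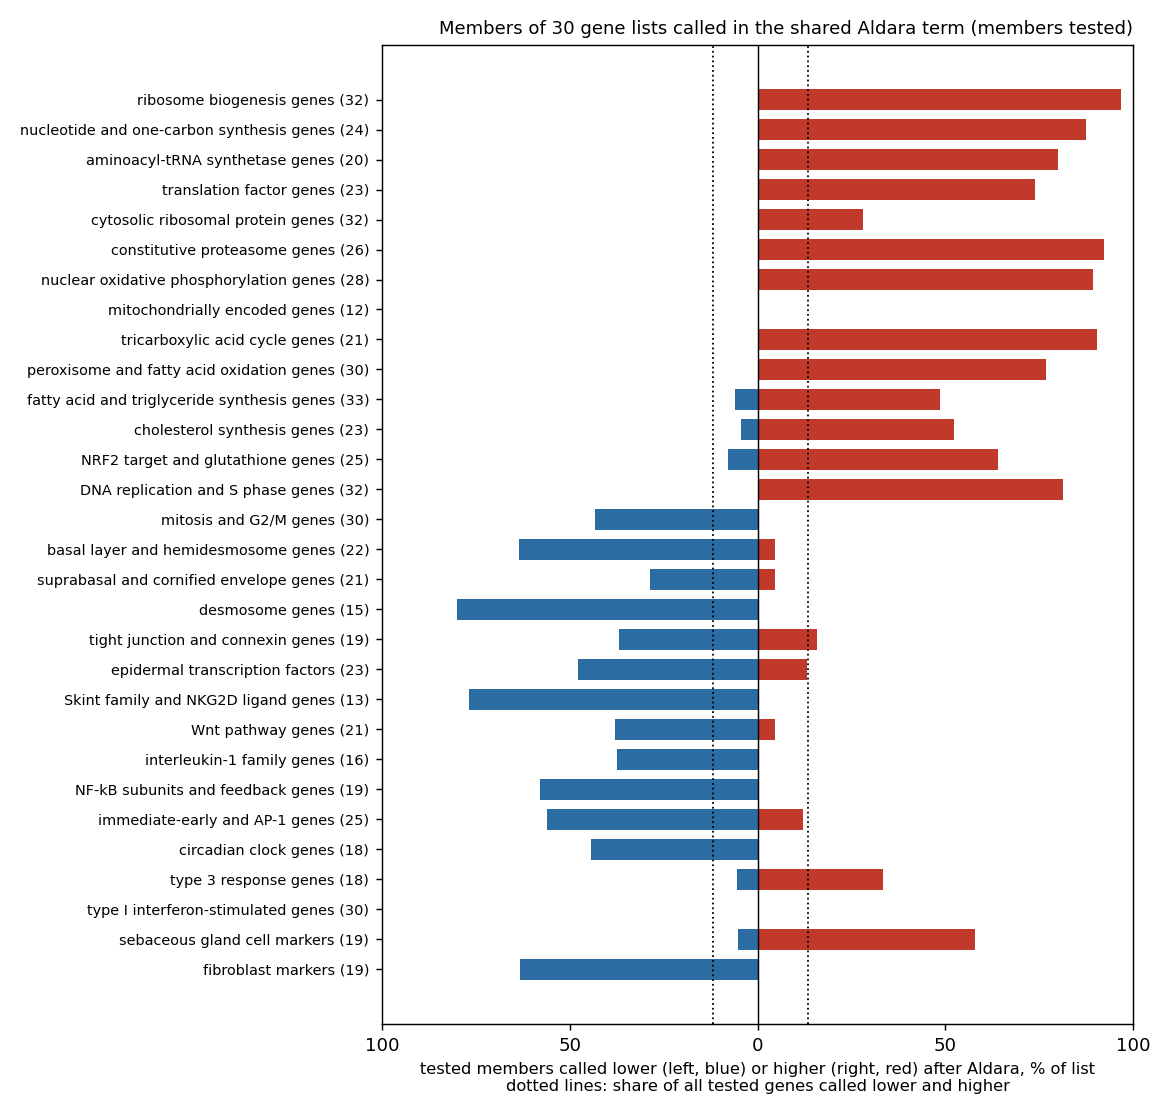
Share of tested members called higher (right, red) or lower (left, blue) in the shared Aldara term for 30 of the 61 lists, with the number tested in brackets and the shares over all tested genes as dotted lines. Ribosome biogenesis reaches 31 of 32 on the right, desmosome genes 12 of 15 on the left, and the mitochondrially encoded and interferon-stimulated lists show no bar.

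The machinery for making ribosomes rose almost as a block. Of 32 ribosome biogenesis genes, 31 were called higher and none lower, with a median log2 change of 1.05, and 19 had every Aldara library above every untreated one. Nolc1, a nucleolar scaffold for RNA polymerase I and snoRNPs, went from 77.2 CPM (47.2 to 104) to 221 CPM (165 to 268) and rose by 1.56 (SE 0.15, edgeR adjusted p = 1.05e-05). Nop2, a methyltransferase of the large-subunit rRNA, went from 48.1 CPM (39.1 to 63.9) to 126 CPM (108 to 251), a log2 difference of 1.55 (SE 0.17, adjusted p = 2.10e-05). Ncl, nucleolin, went from 467 CPM (371 to 610.2) to 1099.6 CPM (978 to 1583), a log2 difference of 1.32 (SE 0.15). The range of untreated values was narrow for these genes, and none of the 3 overlapped. The member that did not pass was Rrp1, at 0.37 (adjusted p = 0.0743). With the 3 libraries rich in Gm10800 left out, 26 members were called higher.

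The structural proteins of the ribosome gave smaller values than the factors that assemble it. Of 32 cytosolic ribosomal protein genes, 9 were called higher and none lower, with a median of 0.45, and none separated the treatments without overlap. The count of 9 depended on single libraries: it was 4 without Il12rb2-deleted Aldara replicate 1, 5 without floxed control Aldara replicate 1, 14 without Il12rb2-deleted untreated replicate 4, and 1 without the 3 libraries rich in Gm10800. Ribosomal protein genes have many processed pseudogenes, so that their counts are uncertain.

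Genes of translation, amino acid charging and protein turnover rose with them. Among 23 translation factor genes 17 were higher and none lower (median 0.70). Gspt1, the release factor eRF3a, went from 42.5 CPM (39.7 to 68.3) to 118 CPM (102 to 223) and rose by 1.42 (SE 0.20, edgeR adjusted p = 0.000118). Pabpc1, the cytoplasmic poly(A)-binding protein, rose by 1.18 (SE 0.18), and Eif4ebp1, an inhibitor of cap-dependent initiation under control of mTOR, by 1.18 (SE 0.17). The elongation factors Eef1a1 and Eef2 stood at -0.08 and 0.17 and did not pass. Of 20 aminoacyl-tRNA synthetase genes 16 were higher (median 0.82), with Farsb, a subunit of the phenylalanine enzyme, going from 87.6 CPM (76.8 to 108) to 204 CPM (136 to 222), a log2 difference of 1.14 (SE 0.14). Of 26 constitutive proteasome genes 24 were higher (median 0.74), 13 of them with no overlap. Psma5, a subunit of the catalytic core, went from 116 CPM (84.1 to 135) to 293 CPM (184 to 312) and rose by 1.28 (SE 0.17, edgeR adjusted p = 7.99e-05), and Psme3, the nuclear activator PA28 gamma, rose by 1.34 (SE 0.21). Without the 3 libraries rich in Gm10800 the counts were 11 for translation factors and 15 for the proteasome.

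Building blocks of nucleic acids followed the same course. Of 24 nucleotide and one-carbon synthesis genes, 21 were higher and none lower (median 1.10), and 14 had no overlap. Cad, the enzyme that starts pyrimidine synthesis, went from 41.8 CPM (37.9 to 48.7) to 111 CPM (84.7 to 149.5) and rose by 1.39 (SE 0.15, edgeR adjusted p = 2.01e-05). Gart, an enzyme of purine synthesis, went from 65.6 CPM (45.4 to 77.8) to 175 CPM (94.4 to 197), a log2 difference of 1.43 (SE 0.18). Rrm2, the regulated subunit of ribonucleotide reductase, rose by 2.10 (SE 0.28), from 40.2 CPM (30.1 to 103) to 233 CPM (152 to 266), while its partner Rrm1 was at 0.18 (SE 0.23, adjusted p = 0.635). Srm, spermidine synthase, was among the steadiest increases, from 65.9 CPM (50.5 to 87.1) to 274 CPM (233 to 382), a log2 difference of 2.09 (SE 0.17, adjusted p = 4.41e-06). Sat1, the enzyme that acetylates polyamines for export and breakdown, went the other way, from 963 CPM (419 to 1412) to 173 CPM (105 to 279), and fell by 2.26 (SE 0.30, adjusted p = 8.33e-05). In the polyamine list as a whole, 2 of 16 genes were higher and 4 lower, or 2 lower without floxed control untreated replicate 3 or Il12rb2-deleted Aldara replicate 3.

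Respiratory chain genes were read from both genomes of the cell. Of 28 nuclear genes for oxidative phosphorylation, 25 were called higher and none lower (median 0.95), 17 with no overlap. Cyc1, the cytochrome of complex III, went from 206 CPM (164 to 265) to 529 CPM (381 to 647) and rose by 1.36 (SE 0.16, edgeR adjusted p = 3.19e-05). Cycs, cytochrome c, rose by 1.29 (SE 0.16), and Sdhb, the iron-sulfur subunit of complex II, by 1.26 (SE 0.16), also without overlap. None of the 12 tested genes of the mitochondrial genome passed by edgeR, DESeq2 or limma voom in either direction (median -0.14, or 0.07 without the 3 libraries rich in Gm10800), and 0 had an unadjusted edgeR p under 0.05. mt-Nd4, a complex I subunit, was read at 5254 CPM (2295 to 6149.6) untreated and 2436 CPM (1288 to 6336) after Aldara (-0.54, SE 0.27, adjusted p = 0.169). The mitochondrial sum ranged widely in both treatments, from 46576 to 120957 CPM untreated and from 35377 to 171558 CPM after Aldara. These genes share sequence with nuclear copies, and no test of the difference between the lists was made.

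Enzymes that feed the respiratory chain rose too. In the tricarboxylic acid cycle list 19 of 21 genes were higher and none lower (median 0.85), or 12 without the 3 libraries rich in Gm10800. Mdh2, mitochondrial malate dehydrogenase, went from 278 CPM (222 to 323) to 691 CPM (660.3 to 768) and rose by 1.37 (SE 0.13, edgeR adjusted p = 1.05e-05). Aco1, the cytosolic aconitase that also serves as iron regulatory protein, rose by 1.79 (SE 0.21), and Suclg1, a subunit of succinyl-CoA ligase, by 1.42 (SE 0.15). Of 30 peroxisome and fatty acid oxidation genes, 23 were higher and none lower (median 1.04). Acot5, a peroxisomal acyl-CoA thioesterase, went from 1.35 CPM (0 to 2.88) to 42.5 CPM (24.04 to 144) and rose by 5.45 (SE 0.65, edgeR adjusted p = 3.60e-05), from counts near 0 in untreated libraries. Acadl, the long-chain acyl-CoA dehydrogenase, went from 138 CPM (109 to 274) to 495 CPM (449.6 to 738), a log2 difference of 1.72 (SE 0.21). The mitochondrial chaperonins were the leading members of the heat shock list: Hspd1 went from 185 CPM (142 to 256) to 929.97 CPM (519 to 1074), a log2 difference of 2.18 (SE 0.19, adjusted p = 6.60e-06), and its lid protein Hspe1 rose by 1.80 (SE 0.23). In the same list of 19 genes, 10 were higher and 3 lower. Dnajb1, a stress-induced co-chaperone of Hsp70, fell by 2.04 (SE 0.34), and the small heat shock protein gene Hspb1 by 0.97 (SE 0.15).

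**Figure D4:**
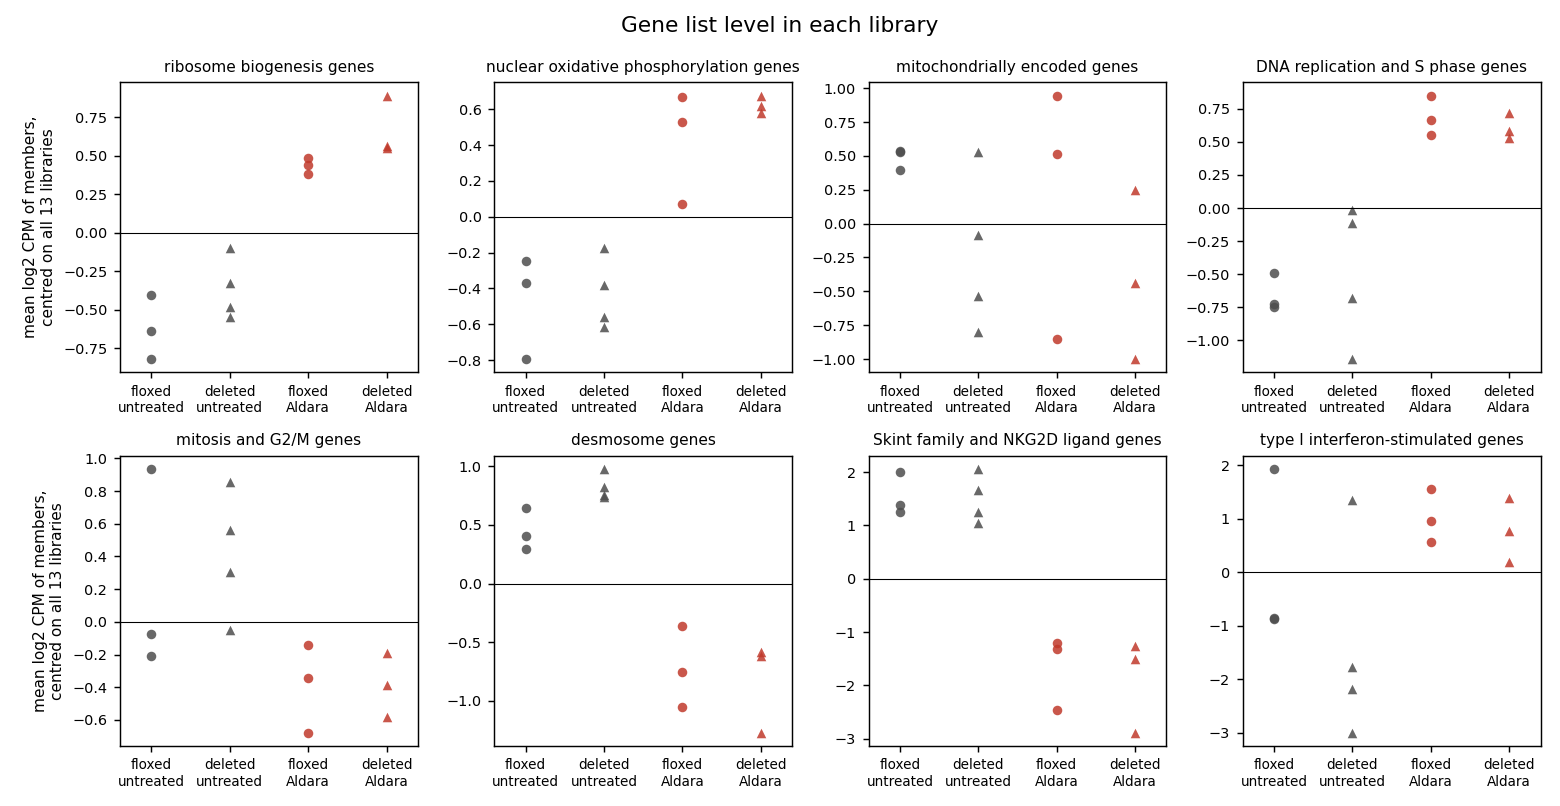
Level of 8 gene lists in each of 13 libraries by group, as the mean over tested members of log2 CPM minus the member's mean over all libraries (circles floxed control, triangles Il12rb2-deleted; grey untreated, red Aldara; scales differ between panels). Treatments do not overlap for ribosome biogenesis, nuclear oxidative phosphorylation, S phase, desmosome and Skint lists, and overlap for mitochondrially encoded, mitosis and interferon-stimulated genes.

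Cell cycle genes were called in opposite directions by phase. Of 32 DNA replication and S phase genes, 26 were called higher and none lower (median 1.07), while of 30 mitosis and G2/M genes none was higher and 13 were lower (median -0.74). The count of 26 was 15 without the 3 libraries rich in Gm10800, and the count of 13 was 17. Promoters of both lists are shown first, because the letters known to mark the phases could be searched in them. Genes of the S phase are known targets of E2F factors, and many mitotic genes carry an element named CHR, the cell cycle genes homology region. Promoter windows of 250 bases upstream of the start came from RefSeq (GRCm38.p6) and were searched on both strands for the E2F letters TTTCCCGC or TTTGGCGC and the CHR letters TTTGAA, neither of which contains the other. Both sets follow, 5′ to 3′ on the gene's strand, with the match in capitals (for a match on the opposite strand its reverse complement). Hells lies at chr19:38930883-38930980 (plus strand), Mcm7 at chr5:138171996-138172093 (minus strand) and Mcm5 at chr8:75109315-75109412 (plus strand); Prc1 lies at chr7:80294401-80294475 (plus strand), Cdc20 at chr4:118437344-118437406 (minus strand) and Kif11 at chr19:37376318-37376381 (plus strand).
Hells: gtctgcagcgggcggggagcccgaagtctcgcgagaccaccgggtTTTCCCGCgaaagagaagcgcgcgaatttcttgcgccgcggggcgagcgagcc
Mcm7: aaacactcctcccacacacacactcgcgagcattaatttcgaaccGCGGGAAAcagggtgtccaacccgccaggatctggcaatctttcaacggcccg
Mcm5: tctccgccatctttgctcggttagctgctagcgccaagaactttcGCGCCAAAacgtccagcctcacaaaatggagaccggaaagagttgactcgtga
Prc1: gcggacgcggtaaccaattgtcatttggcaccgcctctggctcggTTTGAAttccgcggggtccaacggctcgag
Cdc20: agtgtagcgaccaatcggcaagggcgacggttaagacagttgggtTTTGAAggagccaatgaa
Kif11: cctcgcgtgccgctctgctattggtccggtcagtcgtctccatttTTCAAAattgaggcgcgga
The Mcm7 window lies upstream of a RefSeq start but inside the gene's GENCODE span, which runs from 138164583 to 138172422. Each gene was counted as 1 promoter, with a match if the window of any of its RefSeq starts held the letters. The E2F letters were found in 6 of 27 S phase promoters (22.2%) and in 0 of 26 mitosis promoters. Of the 11559 tested genes with a window, 2.6% held them. They were also found in 3 of 27 ribosome biogenesis promoters (11.1%) and in 1 of 19 nuclear oxidative phosphorylation promoters (5.26%). The CHR letters were found in 9 of 26 mitosis promoters (34.6%), in 3 of 27 S phase promoters (11.1%) and in 13.6% of all. Those 9 include Prc1, Cdc20 and Kif11, which were called lower. They also include Cdk1 and Mki67, which were not called (log2 change 0.37 and -0.09). Motifs named E-box and NRF1 were searched in the same windows, and were not enriched in the growth and energy lists. E-box letters were found in 1 of 27 ribosome biogenesis promoters (3.7%), against 9.27% of all. They were found in 3 of 27 S phase promoters (11.1%). NRF1 letters were found in 0 of 19 nuclear oxidative phosphorylation promoters and in 0 of 27 ribosome biogenesis promoters, against 1.7% of all. A match of letters is a description of the window and not a site shown to be bound.

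Hells, a chromatin remodeller needed for DNA methylation, went from 20.9 CPM (10.03 to 32.99) to 63.5 CPM (59.04 to 95.5) and rose by 1.65 (SE 0.27, edgeR adjusted p = 0.000324). Among the subunits of the replicative helicase, Mcm7 went from 74.5 CPM (54.9 to 101) to 168 CPM (136 to 192), a log2 difference of 1.16 (SE 0.15, adjusted p = 7.68e-05), Mcm3 rose by 1.60 (SE 0.25) and Mcm5 by 1.40 (SE 0.26). Ccne1, cyclin E1, which drives entry into S phase, rose by 3.05 (SE 0.50), from 3.37 CPM (0.426 to 9.88) to 32.1 CPM (19.1 to 52.9). Hells, Mcm7, Mcm3 and Ccne1 had no overlap between treatments, and the values of Mcm5 overlapped. Cdc6, the loader of the helicase, rose by 2.68 (SE 0.66, adjusted p = 0.00678), and limma voom did not call it (adjusted p = 0.0569). Prc1, which bundles microtubules of the late spindle, went from 142 CPM (97.9 to 248) to 56.3 CPM (32.997 to 62.6) and fell by 1.59 (SE 0.25, edgeR adjusted p = 0.000257). Cenpf, a kinetochore protein, went from 129.9 CPM (93.5 to 208) to 61.3 CPM (34.1 to 89.1), a log2 difference of -1.27 (SE 0.23), and the cytokinesis kinesin Kif23 fell by 1.31 (SE 0.26). Both Prc1 and Cenpf lay lower in every Aldara library than in any untreated one. Cdc20, which activates the anaphase-promoting complex, fell by 1.13 (SE 0.26), and Kif11, the motor that separates spindle poles, by 0.83 (SE 0.24). The call of Kif11 was lost with the replicate number as a block (adjusted p = 0.0529). Cdk1, at 0.37 (adjusted p = 0.23), and the proliferation marker Mki67, at -0.09 (0.74), did not pass. Cdk1 was called higher without Il12rb2-deleted untreated replicate 4 (0.53, edgeR adjusted p = 0.0339) and with the replicate block (0.54, 0.0331). Mki67 was read at 177 CPM (132 to 246) and 173 CPM (155 to 192).

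**Figure D5:**
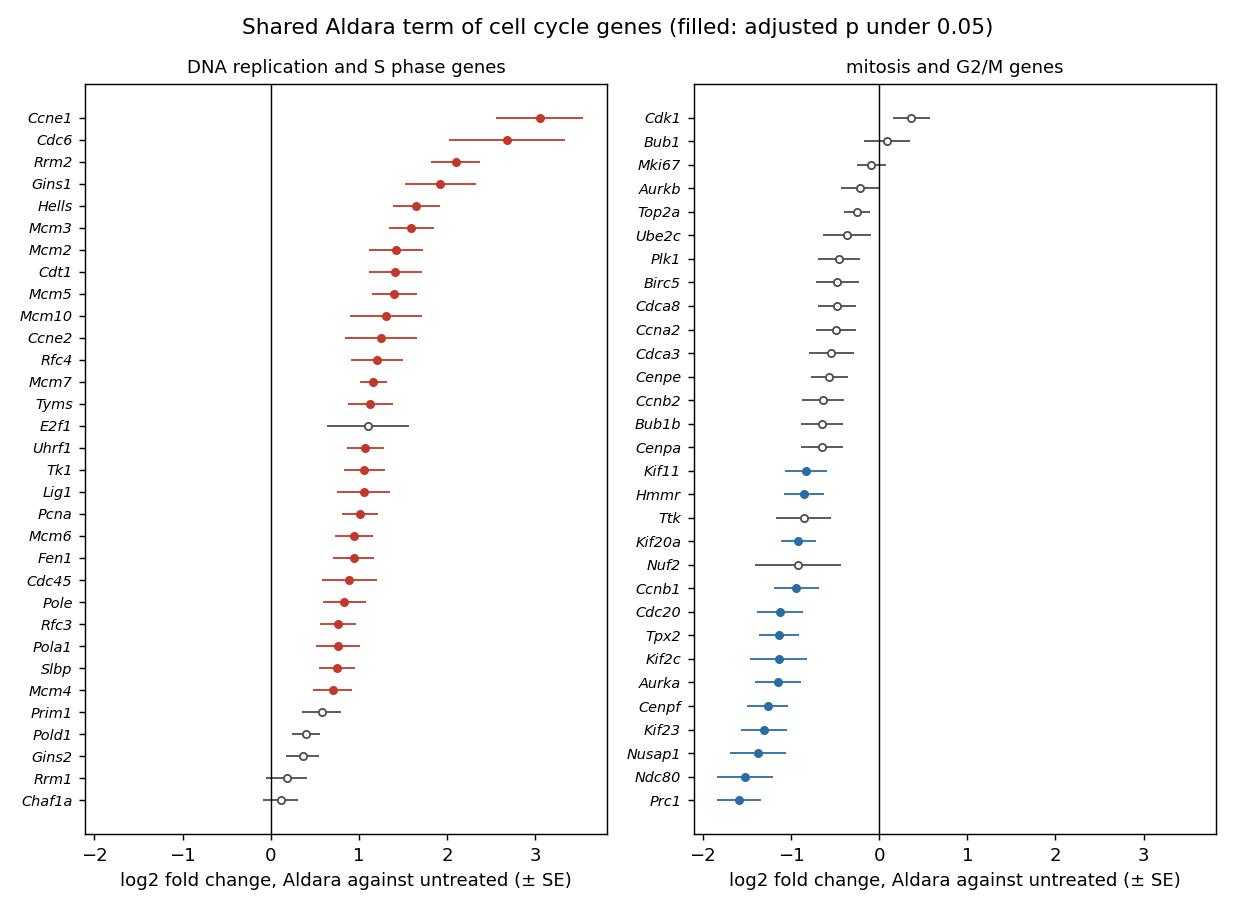
Shared log2 fold change after Aldara with SE for 32 DNA replication and S phase genes (left) and 30 mitosis and G2/M genes (right), filled where the edgeR adjusted p was under 0.05. All 32 S phase points lie to the right of 0 and 28 of 30 mitosis points to the left.

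Lipid genes rose in the branches of fatty acid and sterol synthesis and storage. Of 33 fatty acid and triglyceride synthesis genes, 16 were higher and 2 lower (median 1.01). Far2, an acyl-CoA reductase that makes fatty alcohols for waxes, went from 75.2 CPM (30.8 to 157) to 650.1 CPM (497 to 1019) and rose by 2.93 (SE 0.28, edgeR adjusted p = 1.05e-05), and Fasn, fatty acid synthase, rose by 1.80 (SE 0.25). Acsl1, an acyl-CoA synthetase, went against the list, from 114 CPM (74.5 to 172) to 41.05 CPM (25.7 to 51.5), a log2 difference of -1.63 (SE 0.21). In lipid storage, 8 of 18 genes were higher and 1 lower (median 1.31). Plin2, which coats lipid droplets, went from 162 CPM (86.6 to 432) to 1630.5 CPM (1198 to 1999) and rose by 2.75 (SE 0.35, edgeR adjusted p = 5.78e-05), and Mgll, monoglyceride lipase, from 173 CPM (109 to 327) to 1169 CPM (365 to 1623), a log2 difference of 2.55 (SE 0.31). Fabp5, the epidermal fatty acid-binding protein, rose by 2.57 (SE 0.36), from 172 CPM (55.97 to 278) to 1080.3 CPM (282 to 1159). In each of these 5 increases and in Acsl1 the treatments did not overlap. Of 23 cholesterol synthesis genes 12 were higher and 1 lower (median 0.72), led by Mvd, mevalonate diphosphate decarboxylase (2.18, SE 0.34), and Pmvk (1.30, SE 0.20). The sebaceous gland cell list, which shares Far2, Elovl3 and further genes with the lipid lists, had 11 of 19 members higher and 1 lower (median 1.83). Mc5r, a melanocortin receptor of sebocytes, went from 18.7 CPM (2.9998 to 38.8) to 92.1 CPM (66.7 to 128), a log2 difference of 2.44 (SE 0.47), and Mgst1, a microsomal glutathione transferase, from 145 CPM (59.7 to 344) to 784 CPM (582 to 986), a log2 difference of 2.09 (SE 0.35). The part of sebaceous cells in the lipid result was not tested.

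Barrier lipids and redox genes gave separate pictures. Of 24 sphingolipid and barrier lipid genes 4 were higher and 7 lower (median -0.49), and the 7 became 4 without Il12rb2-deleted Aldara replicate 1. Sgms1, a sphingomyelin synthase, went from 154 CPM (75.6 to 251) to 42.7 CPM (27.8 to 65.6) and fell by 1.78 (SE 0.30, edgeR adjusted p = 0.000404). Of 25 NRF2 target and glutathione genes 16 were higher and 2 lower (median 0.94), 10 of the increases with no overlap. Gclm, the modifier subunit of the enzyme that starts glutathione synthesis, went from 44.1 CPM (28.5 to 84.5) to 189 CPM (188 to 225), a log2 difference of 1.97 (SE 0.25, adjusted p = 5.05e-05). The pentose phosphate enzymes Pgd and Tkt rose by 1.58 (SE 0.18) and 1.63 (SE 0.19). In glycolysis and hypoxia, 5 of 25 genes were higher and 5 lower (median 0.16), or 3 and 3 without the 3 libraries rich in Gm10800, and 3 lower without floxed control untreated replicate 3. Slc16a1, the lactate carrier MCT1, went from 63.2 CPM (29.7 to 90.5) to 338 CPM (127 to 449.5), a log2 difference of 2.47 (SE 0.31), whereas the hypoxia-responsive Ndrg1 went from 284 CPM (123 to 519.9) to 75.2 CPM (44.9 to 119.6), a log2 difference of -1.76 (SE 0.25).

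Stress genes moved in both directions. Of 23 integrated stress and amino acid response genes, 12 were higher and 4 lower (median 0.73). Psph and Phgdh, enzymes of serine synthesis, rose by 1.77 (SE 0.26) and 1.37 (SE 0.19), and Psph went from 102 CPM (42.8 to 194) to 389.7 CPM (305 to 475). Atf3, a stress-induced transcription factor, fell from 3155 CPM (1140.2 to 4682) to 739 CPM (326 to 1013), a log2 difference of -2.11 (SE 0.31, edgeR adjusted p = 0.000153). In the unfolded protein response list 13 of 22 genes were higher and none lower (median 0.51), which became 5 without the 3 libraries rich in Gm10800. Creld2, a secreted chaperone of the endoplasmic reticulum, went from 42.8 CPM (27.6 to 74.4) to 104 CPM (87.1 to 143), a log2 difference of 1.32 (SE 0.22). Calr, calreticulin, rose by 0.88 (SE 0.19) and Canx, calnexin, by 0.67 (SE 0.14).

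Genes of epidermal structure fell, beside the fall of the fibroblast marker sum given above, whose part was not tested. Of 22 basal layer and hemidesmosome genes, 14 were lower and 1 higher (median -0.99), 10 of them below every untreated library. Col17a1, the transmembrane collagen of hemidesmosomes, went from 3361 CPM (1359 to 5394) to 739 CPM (500.1 to 882) and fell by 2.19 (SE 0.27, edgeR adjusted p = 4.69e-05). Col7a1, the collagen of anchoring fibrils, went from 139 CPM (87.3 to 223) to 27.1 CPM (16.3 to 41.6), a log2 difference of -2.51 (SE 0.26, adjusted p = 1.54e-05). Krt15, a keratin of basal and stem cells, went from 6361 CPM (5068 to 12284) to 1455 CPM (450.3 to 1911), a log2 difference of -2.44 (SE 0.33). The basal keratins Krt5 and Krt14 fell by less, 1.38 (SE 0.22) and 1.17 (SE 0.26), and the values of Krt14 overlapped. Dlk2, a transmembrane relative of the Notch ligands, was the member that rose, from 42.1 CPM (20.5 to 49.7) to 101 CPM (64.04 to 132), a log2 difference of 1.34 (SE 0.23).

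Most desmosome genes fell. Of 15 desmosome genes, 12 were lower and none higher (median -1.16), 9 with no overlap. Ppl, periplakin, went from 276 CPM (201 to 322) to 80.7 CPM (59.02 to 95.5) and fell by 1.77 (SE 0.16, edgeR adjusted p = 9.53e-06), and Dsc3, a basal desmocollin, from 1039 CPM (693 to 1519) to 381 CPM (244 to 420.2), a log2 difference of -1.62 (SE 0.21). Of 19 tight junction and connexin genes 7 were lower and 3 higher (median -0.87), with 11 lower when floxed control Aldara replicate 3 was left out. Marveld2, tricellulin, fell by 1.79 (SE 0.32). Gjb2, connexin 26, which is known to rise in wounded and psoriatic epidermis, went from 13.1 CPM (5.9995 to 32.7) to 59.03 CPM (37.3 to 227) and rose by 2.40 (SE 0.45). In the suprabasal and cornified envelope list 6 of 21 genes were lower and 1 higher (median -0.80). Krt1, the partner of Krt10, fell by 3.01 (SE 0.49), from 1209.5 CPM (658 to 1627) to 145 CPM (17.1 to 285), whereas involucrin, Ivl, rose by 0.76 (SE 0.21, adjusted p = 0.0142). The call of Ivl was lost without Il12rb2-deleted Aldara replicate 2 (adjusted p = 0.0548) and without the 3 libraries rich in Gm10800 (0.104).

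Transcription factors of the epidermis moved in both directions, with 11 of 23 lower and 3 higher (median -0.62). Maf, a factor of keratinocyte differentiation, went from 40.8 CPM (29.7 to 50.4) to 5.203 CPM (1.33 to 17.2) and fell by 2.77 (SE 0.36, edgeR adjusted p = 6.63e-05). Gata3 went from 936 CPM (749 to 1424) to 366 CPM (178 to 447), a log2 difference of -1.66 (SE 0.22, adjusted p = 6.73e-05). Cebpb, of the C/EBP family, rose from 10.2 CPM (3.51 to 17.4) to 38.2 CPM (25.8 to 70.4), a log2 difference of 2.10 (SE 0.34). The count of 11 became 7 without floxed control untreated replicate 2, floxed control Aldara replicate 1 or Il12rb2-deleted Aldara replicate 3, and 6 without the 3 libraries rich in Gm10800.

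The list with the lowest median was that of the Skint family and the ligands of NKG2D. Skint genes encode membrane proteins of keratinocytes, and Skint1 is known for its part in the selection of epidermal gamma delta T cells. Of 13 genes 10 were lower and none higher (median -3.23), 8 with no overlap. Skint1, on chromosome 4 from 112006269 to 112029538, plus strand, went from 81.9 CPM (57.2 to 121) to 12.1 CPM (2.97 to 16.3) and fell by 2.90 (SE 0.35, edgeR adjusted p = 3.78e-05). Skint7 went from 29.5 CPM (12.01 to 43.7) to 1.06 CPM (0 to 2.94), a log2 difference of -4.73 (SE 0.66), and Skint6 from 39.97 CPM (18.6 to 77.1) to 2.38 CPM (0.925 to 5.46). H60c, an NKG2D ligand of the skin, went from 70.5 CPM (33.8 to 104) to 3.74 CPM (0.438 to 13.9), a log2 difference of -3.74 (SE 0.55). The Skint genes are closely related copies in a cluster, so that reads could be split among them and single members are uncertain. Of 11 tested markers in the T cell list, 2 were lower and none higher. Trbc2, a constant region of the T cell receptor beta chain, went from 17.8 CPM (7.73 to 28.1) to 5.504 CPM (2.21 to 8.69), a log2 difference of -1.67 (SE 0.37). The summed level of the list was 32.5 to 52.5 CPM untreated and 18.8 to 32.1 CPM after Aldara.

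Lists of secreted growth signals and their receptors held more genes called lower than higher, though most members did not pass. In the Wnt list 8 of 21 genes were lower and 1 higher (median -0.64), with 4 lower without the 3 libraries rich in Gm10800. Among ligands, Wnt16 went from 36.6 CPM (9.35 to 61.4) to 2.13 CPM (0.205 to 2.87) and fell by 4.34 (SE 0.62, edgeR adjusted p = 0.000131), and Wnt3 from 200.01 CPM (69.5 to 226) to 15.3 CPM (0.102 to 31.4), a log2 difference of -3.39 (SE 0.61). Tcf7, a nuclear effector of the pathway, was the member that rose, from 2.31 CPM (0.544 to 5.91) to 12.95 CPM (6.498 to 27.5), a log2 difference of 2.48 (SE 0.47). Bmp2 fell by 3.73 (SE 0.69) and Bmp4 fell by 3.22 (SE 0.58), both with no overlap, in a TGF-beta and BMP list of 22 genes with 6 lower and 1 higher (median -0.07), or 3 lower without the 3 libraries rich in Gm10800. For the EGF receptor family, 6 of 20 genes were lower and 3 higher (median -0.03). Nrg4, a ligand of ErbB4, rose from 17.7 CPM (9.34 to 26.4) to 67.9 CPM (34.2 to 89.5), a log2 difference of 1.97 (SE 0.25), while the receptor Erbb3 fell by 1.51 (SE 0.25). Of the feedback inhibitors, Spry1 went from 79.2 CPM (40.8 to 131) to 12.2 CPM (6.65 to 15.8), a log2 difference of -2.71 (SE 0.28, adjusted p = 1.53e-05), and its relative Spry4 from 1.71 CPM (0 to 6.08) to 15.7 CPM (10.6 to 19.4), a log2 difference of 2.62 (SE 0.68). In the YAP target list 6 of 17 genes were lower and 1 higher (median -0.89), among them Ptpn14, a phosphatase that holds YAP back (-1.33, SE 0.19). Mt4, a metallothionein of stratified epithelium, went from 62.2 CPM (16.8 to 78.05) to 0.7901 CPM (0 to 2.36) and fell by 5.85 (SE 0.60, edgeR adjusted p = 1.48e-05). Its list of metallothionein and zinc transporter genes did not fall as a whole. There 3 of 17 genes were lower and none higher (median 0.14), with 9 positive and 8 negative changes. Of the matrix protease and inhibitor list 10 of 24 genes were lower and 4 higher (median -0.99), the 4 becoming 2 without the 3 libraries rich in Gm10800, with Mmp11, stromelysin-3, going up from 6.26 CPM (3.27 to 11.8) to 50.01 CPM (29.5 to 59.5), a log2 difference of 2.81 (SE 0.31).

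Inflammatory genes moved in both directions. Of 18 known targets of interleukin-17 and interleukin-22, 6 were higher and 1 lower (median 1.49). Without the filter on low counts the median of this list was 0.60. Besides Lcn2, the protease inhibitor gene Slpi went from 0.771 CPM (0 to 5.45) to 37.4 CPM (24.1 to 186) and rose by 5.24 (SE 0.88, edgeR adjusted p = 0.000437), and S100a8, a subunit of the antimicrobial calprotectin, from 0.59995 CPM (0 to 12.2) to 38.3 CPM (13.9 to 141), a log2 difference of 4.50 (SE 0.74). Cxcl1, a chemokine for neutrophils, rose by 1.37 (SE 0.28). S100a8 and S100a9 are also abundant in neutrophils. The summed level of 17 neutrophil markers was 87.3 to 306 CPM untreated and 41.1 to 194 CPM after Aldara, and the granule gene Ngp was at 0 in every Aldara library. Of the 7 of these markers that could be tested, S100a8 and S100a9 were called higher and Il1r2 lower. Keratinocytes also express Il1r2, which makes up much of the sum in untreated libraries. In Aldara libraries Il1r2 was at 0 to 20.1 CPM and S100a8 at 13.9 to 141 CPM. The range of the sum therefore does not give the direction of the other members. A positive change was seen in 5 of the 7 (median 1.49). Only these 7 of the 17 passed the filter on low counts, and without the filter the median was -0.84. The part of neutrophils in the increases was not tested.

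Among the interleukin-1 family genes, 6 of 16 were lower and none higher (median -1.32). Among inhibitors of the pathway, Il1rn, the receptor antagonist, fell from 194 CPM (109 to 299.8) to 36.2 CPM (9.07 to 38.9), a log2 difference of -2.79 (SE 0.38, edgeR adjusted p = 8.82e-05). Il1r2, the decoy receptor, fell from 152 CPM (60.3 to 284) to 14.02 CPM (0 to 20.1), a log2 difference of -3.71 (SE 0.62). The alarmin Il33 went from 229.7 CPM (122 to 339) to 72.6 CPM (50.3 to 119), a log2 difference of -1.47 (SE 0.28). None of these 3 overlapped. Il1b, at 2.37 CPM (0.213 to 5.83) and 0.513 CPM (0.0487 to 1.44), did not pass by edgeR (adjusted p = 0.0764) and passed by DESeq2 (0.0171). Of 19 chemokines and epidermal cytokines 7 were lower and none higher (median -0.77), or 4 lower without the 3 libraries rich in Gm10800. Il34, the ligand that maintains Langerhans cells, went from 125 CPM (73.9 to 185) to 18.5 CPM (0.102 to 25.3), a log2 difference of -2.98 (SE 0.57), and Cxcl14, a chemokine that healthy epidermis makes, from 226 CPM (154 to 440.02) to 73.998 CPM (67.1 to 135), a log2 difference of -1.46 (SE 0.25).

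Receptors and intracellular relays held further decreases. In the list of receptors for type 3 and related cytokines 8 of 20 genes were lower and 1 higher (median -0.49), with 5 lower without the 3 libraries rich in Gm10800. Il6ra went from 159 CPM (74.6 to 259.8) to 31.4 CPM (9.31 to 43.3) and fell by 2.51 (SE 0.34, edgeR adjusted p = 7.89e-05), and Lifr, the receptor for leukemia inhibitory factor, by 1.57 (SE 0.25). Tnfrsf1a, a receptor for TNF, was the member that rose, from 207 CPM (156 to 223) to 306 CPM (274 to 408), a log2 difference of 0.69 (SE 0.13). Of 19 NF-kB subunits and feedback genes 11 were lower and none higher (median -0.98). Tnfaip3, the feedback inhibitor A20, fell by 2.70 (SE 0.44), from 775 CPM (187 to 1968) to 142 CPM (47.1 to 223), and Icam1 went from 271 CPM (131 to 597) to 66.5 CPM (59.2 to 124), a log2 difference of -1.77 (SE 0.30). The subunit gene Rela fell by 1.07 (SE 0.19), from 198 CPM (119 to 310.3) to 99.5 CPM (77.5 to 108). In interleukin-12 and interleukin-23 signalling, 4 of 17 genes were lower and 2 higher (median -0.36). Socs3, a feedback inhibitor of cytokine receptors, fell by 1.99 (SE 0.34), and the kinase Jak1 by 0.71 (SE 0.15). Among 16 Toll-like receptor and adaptor genes 2 were higher and 2 lower (median -0.11), or 1 and 1 without the 3 libraries rich in Gm10800, where the median was 0.41.

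Interferon-stimulated genes gave no call by edgeR in the shared term. Of 30 genes, 27 had a positive change, the median was 0.80, and none passed by edgeR or by DESeq2. At an unadjusted p under 0.05 edgeR gave 4, and limma voom called 16, so that the absence of calls depended on the tool. Bst2, the antiviral tetherin, was read at 7.8003 CPM (0.467 to 156) untreated and 115 CPM (64.4 to 159) after Aldara (2.26, SE 0.86, adjusted p = 0.0657), and limma voom called it (0.00172). The untreated libraries were the spread side. The mean level of the list on the centred log2 scale ran from -2.998 to 1.92 over them and from 0.19 to 1.56 over the Aldara libraries, and floxed control untreated replicate 1 stood highest of all 13. Without Il12rb2-deleted untreated replicate 2, 7 of the 30 were called higher. Without floxed control untreated replicate 1, 8 were, with Bst2 at an adjusted p of 0.00205. In the interferon-gamma and antigen presentation list 1 of 26 genes was higher and 3 lower (median 0.01), or 0 and 1 without the 3 libraries rich in Gm10800, and 0 to 2 and 1 to 3 with single libraries left out. Irf1, a transcription factor of that response, went from 222 CPM (175 to 386) to 89.2 CPM (7.47 to 117), a log2 difference of -1.65 (SE 0.40, edgeR adjusted p = 0.00668), a call lost without the 3 libraries rich in Gm10800 (0.0742).

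Among rapidly induced genes and clock genes, more members were called lower than higher. Of 25 immediate-early and AP-1 genes 14 were lower and 3 higher (median -0.92). Fos went from 5406 CPM (2451 to 6782) to 1668 CPM (877 to 2125) and fell by 1.61 (SE 0.26, edgeR adjusted p = 0.000347), and Zfp36, which destabilises cytokine mRNAs, from 865 CPM (382 to 1054) to 196 CPM (98.5 to 378), a log2 difference of -1.93 (SE 0.31). Egr3 rose instead, from 22.98 CPM (16.4 to 33.1) to 57.3 CPM (39.6 to 79.8), a log2 difference of 1.28 (SE 0.21). Of 18 circadian clock genes 8 were lower and none higher (median -1.01). Bhlhe40, a repressor of clock targets, went from 673 CPM (263 to 1021) to 152 CPM (77.9 to 230.2), a log2 difference of -2.09 (SE 0.29), and Rora fell by 1.85 (SE 0.42). The time of day of collection is not given in the sources used here. The count of 8 was 5 without Il12rb2-deleted Aldara replicate 2, and 5 without the 3 libraries rich in Gm10800. In the p53 target and apoptosis list 7 of 22 genes were lower and 3 higher (median -0.44), where the 3 became 0 without the 3 libraries rich in Gm10800 and 1 without any of 6 single libraries. In that list Trp53inp1 went from 45.03 CPM (34.5 to 113) to 10.99 CPM (3.601 to 25.5), a log2 difference of -2.25 (SE 0.40).

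Markers of other cells moved with treatment for some types. Of 19 fibroblast markers 12 were lower and none higher (median -2.62), 9 with no overlap. Col1a2, a fibrillar collagen chain, went from 199.5 CPM (129 to 365) to 20.7 CPM (2.97 to 55.7) and fell by 3.09 (SE 0.51, edgeR adjusted p = 0.000396), and Sparc from 248 CPM (230.2 to 520.04) to 87.6 CPM (54.4 to 117), a log2 difference of -1.74 (SE 0.23). Of 19 endothelial and mural cell markers 4 were lower and none higher, and 2 were lower without the 3 libraries rich in Gm10800 or without any of floxed control untreated replicates 2 and 3, Il12rb2-deleted untreated replicates 1 and 2 and floxed control Aldara replicate 1. Their sum was 118 to 475 CPM untreated and 83.0 to 181 CPM after Aldara. Cd207, the langerin gene of Langerhans cells, was read at 0.792 CPM (0 to 4.48) untreated and 0 CPM (0 to 0.116) after Aldara. It fell by 5.84 (SE 1.67, edgeR adjusted p = 0.0168), which did not pass once floxed control untreated replicate 3 was left out (0.073) or by limma voom (0.0897). The other 18 Langerhans cell and macrophage markers tested were not called in either direction by edgeR. The median of the list was -0.55, or 0.08 without the 3 libraries rich in Gm10800. Its summed level ran from 429 to 1031 CPM (median 591) untreated and from 587 to 1339 CPM (median 752) after Aldara. Taken alone, the Il12rb2-deleted contrast gave 2 members higher and none lower. Hbb-bt and Hbb-bs, globin genes of red cells, fell by 4.24 and 3.01, and neither passed once floxed control untreated replicate 1 was left out (adjusted p = 0.0867 and 0.0892). No melanocyte marker of 11 passed by edgeR, DESeq2 or limma voom, and 0 had an unadjusted edgeR p under 0.05.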

How the data were processed

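Per the labels' protocols, total RNA of interfollicular keratinocytes was made into Smart-seq2 libraries, a method that does not mark strand, and sequenced as single-end reads of 100 bases. The deposited table holds raw counts per Ensembl gene, which the authors had not normalized, 1 column per library. The submitters' processing notes name the aligner STAR, Subread with its counter featureCounts, and build GRCm38; their versions, the annotation and the treatment of multimapping reads are not stated in the labels or the file header. Overlapping and antisense genes cannot be told apart.

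Of 25746 genes, 1394 had no count in any library. Total counts ran from 5830034 to 22232478. Groups came from the labels. Genes were kept by filterByExpr (minimum count 10), scaled by TMM and fitted in edgeR 4.0.16 (R 4.3.3) with genotype and treatment as additive terms over all 13 libraries. The common dispersion was 0.424. The quasi-likelihood F test of the treatment term was adjusted by Benjamini-Hochberg over all 16051 genes and called at an adjusted p under 0.05. SE was taken as the absolute log2 change over the root of the F statistic. The genotypes' own effects and the interaction came from a fit with 1 coefficient per group. DESeq2 1.42.0, limma 3.58.1 (voom), other scaling, no filter, no genotype term, a replicate block and left-out libraries were alternatives. No 2 libraries held the same counts.

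The genes and the 61 lists were chosen with earlier results of these data known. The rule names the 12 largest called increases and decreases with no overlap between treatments and an average log2 CPM of at least 3, the 8 with the smallest p called in neither genotype alone, the 3 members with the smallest p of each list, Il12rb2, Il12rb1, Krt5 and Krt14. Some genes that the rule names are not reported here. Other genes named were chosen after their values were seen, namely Ccne1, Cdc6, Hells, Mcm5, Cdc20, Kif11, Cdk1, Mki67, Rrp1, Rrm1, Eef1a1, Eef2, Ivl, Krt15, Dlk2, Fasn, Mc5r, Dnajb1, H60c, Spry4, Cxcl1, Il1b, Tnfrsf1a, Rela, Egr3, Pparg and Angptl4. Coordinates came from GENCODE M21 (GRCm38) and promoters from RefSeq (GRCm38.p6), which gave a window for 11559 tested genes.

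On simulated counts over 15447 genes with the same libraries, the fit called 45 of 100 genes set to change 2-fold, 93 of 100 set to change 4-fold, and 7 that had been left alone.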

Additional observations from a re-analysis of the deposited data

Results flagged for a closer look

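For the genes named and the first principal component, the untreated and the Aldara libraries were searched for a single library that stood far from the rest of its treatment, by Dixon's test at the 95% level. 41 of 338 groups met it, where chance gives about 1 in 20. Genes of 1 library are not independent, and the libraries of a treatment hold both genotypes. The explanation of these values was not tested.

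The library concerned was floxed control Aldara replicate 3 in 15 cases and Il12rb2-deleted Aldara replicate 1 in 12. Floxed control Aldara replicate 3 was the highest of its treatment for Gspt1 at 223 CPM (others 102 to 131), Hells at 95.5 (others 59.0 to 66.8), Psme3 at 216 (others 80.1 to 112), and Ptpn14 at 86.5 (others 57.3 to 66.5). It was also highest for Slc7a5 at 164 CPM (others 36.9 to 58.6), and Socs3 at 398 (others 96.2 to 161). Floxed control Aldara replicate 3 was the lowest of its treatment for Cdc6 at 2.68 CPM (others 12.4 to 24.3), Eef1a1 at 2598 (others 5018 to 5868), Eef2 at 1025 (others 2068 to 2665), and Fabp5 at 282 (others 1057 to 1159). It was also lowest for Farsb at 136 CPM (others 198 to 222), Gart at 94.4 (others 165 to 197), Hspd1 at 519 (others 825 to 1074), and Pparg at 61.4 (others 94.8 to 119.8). It was further lowest for Slc16a1 at 127 CPM (others 326 to 449.5). Il12rb2-deleted Aldara replicate 1 was the highest of its treatment for Ncl at 1583 CPM (others 978 to 1149). Il12rb2-deleted Aldara replicate 1 was the lowest of its treatment for Bmp4 at 0 CPM (others 3.90 to 11.04), Calm5 at 0 (others 4.58 to 11.7), Erbb3 at 19.7 (others 44.6 to 70.2), and Il1r2 at 0 (others 9.49 to 20.1). It was also lowest for Il34 at 0.102 CPM (others 10.2 to 25.3), Irf1 at 7.47 (others 81.6 to 117), Lifr at 22.9 (others 54.2 to 87.4), and Notch3 at 0.511 (others 7.98 to 14.1). It was further lowest for Rora at 10.1 CPM (others 67.0 to 129), and Wnt3 at 0.102 (others 9.64 to 31.4). On the first principal component it lay at 159.5, the other Aldara libraries at 38.2 to 63.0.

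Floxed control untreated replicate 1 was the highest of its treatment for Hbb-bs at 102 CPM (others 14.1 to 28.7). Floxed control untreated replicate 1 was the lowest of its treatment for Bmp2 at 14.9 CPM (others 39.2 to 76.6), Ptpn14 at 91.0 (others 148 to 209), Sema3d at 25.6 (others 80.2 to 172), and Zfp36 at 382 (others 725 to 1054). Floxed control Aldara replicate 2 was the highest of its treatment for Cd207 at 0.116 CPM (others 0 to 0). Floxed control Aldara replicate 2 was the lowest of its treatment for Canx at 522 CPM (others 628 to 695). Il12rb2-deleted untreated replicate 1 was the lowest of its treatment for Elovl3 at 4.20 CPM (others 34.4 to 109), and Sdhb at 72.4 (others 106 to 125). Il12rb2-deleted untreated replicate 3 was the lowest of its treatment for Cdc6 at 0 CPM (others 1.92 to 4.16). Floxed control Aldara replicate 1 was the highest of its treatment for Hbb-bt at 1.92 CPM (others 0 to 0.137). Il12rb2-deleted Aldara replicate 2 was the highest of its treatment for Ntf3 at 10.1 CPM (others 4.30 to 5.13). Il12rb2-deleted untreated replicate 4 was the highest of its treatment for S100a9 at 7.88 CPM (others 0 to 1.10). Il12rb2-deleted untreated replicate 2 was the highest of its treatment for Sparc at 520.0 CPM (others 230.2 to 296).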

How the results depend on the processing

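The 4063 calls (2156 higher, 1907 lower) became 4019 with RLE size factors, 4871 with DESeq2, 4447 with limma voom, 3558 without a filter on low counts and 4055 without the genotype term. With 1 library left out in turn they ranged from 3371 to 4203. They fell to 857 (449 higher, 408 lower) in a fit to the floxed control libraries only and to 2262 (1091 higher, 1171 lower) in the Il12rb2-deleted libraries only, where fewer samples enter. Without the 3 libraries in which Gm10800 took over 5% of counts, an alternative chosen after seeing the data, 2487 genes were called (1331 higher, 1156 lower), and 58.7% of the 4063 were kept. Without the 7 libraries over 1%, which leaves 2 Aldara libraries, both floxed control, and 4 untreated, 52 were called (3 higher, 49 lower). The interaction called 6 genes with DESeq2, and with 1 library left out 0 to 1.

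Of 166 genes named, 157 were called, 152 kept the call with any 1 library left out, and none of the 157 changed direction under the 24 alternatives. The 5 that lost it were Il12rb1, Ivl, Cd207, Hbb-bs and Hbb-bt. Medians of 16 lists changed sign under some alternative, 59 times in all, most often those of interferon-gamma, Toll-like receptor and melanocyte genes. Of the 30 interferon-stimulated genes edgeR called 0 and limma voom 16. The labels do not say whether the replicate numbers pair the libraries, and the correlations do not settle it. Same-numbered libraries of different groups had correlations of -0.16 to 0.42, and 6 of 18 pairs were over 0.1. Differently numbered libraries of different groups had correlations of -0.44 to 0.37. With the number as a replicate block 3704 genes were called (1985 higher, 1719 lower), and 6 of 13 libraries correlated best with their own number. The depth of the libraries limits genes with few counts such as Il12rb1, Cd207 and Cdc6.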

Other observations

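Of 17 PPAR target genes 8 were higher and 1 lower in the shared Aldara term (median 0.96, against -0.15 over all genes tested). Pparg itself, the receptor that governs sebocyte and adipocyte lipid programmes, went from 22.9 CPM (4.97 to 48.1) untreated to 105 CPM (61.4 to 119.8) after Aldara and rose by 2.09 (SE 0.41, edgeR adjusted p = 0.00144). Angptl4, a secreted inhibitor of lipoprotein lipase, went from 70.8 CPM (36.2 to 142) to 314 CPM (175 to 617), a log2 difference of 2.11 (SE 0.34). Of 25 lysosome and autophagy genes 2 were higher and 6 lower (median -0.13). Ctsd, the protease cathepsin D, was one of the 2, from 593 CPM (419 to 792) to 1285 CPM (951 to 1668), a log2 difference of 1.09 (SE 0.18, edgeR adjusted p = 0.000473), without overlap.

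Of 20 wound-edge and stress keratin genes 3 were higher and 4 lower (median -0.43), or 1 and 2 without the 3 libraries rich in Gm10800, and 1 to 3 and 3 to 6 with single libraries left out. Itga2, the collagen-binding integrin chain of migrating keratinocytes, fell by 1.58 (SE 0.30, edgeR adjusted p = 0.00118), from 30.7 CPM (17.8 to 59.9) to 11.8 CPM (7.09 to 20.4). Of 16 Notch pathway genes 2 were lower and none higher (median -0.23), with Notch3, which mural cells also express, at -1.95 (SE 0.46). Of 17 retinoid genes 2 were higher and 2 lower (median -0.16, or 0.27 without the 3 libraries rich in Gm10800). Of 23 hair follicle cell markers 2 were higher and 6 lower (median -0.41), or 0 and 3 without the 3 libraries rich in Gm10800, where the median was 0.26. The 6 also became 3 without any of floxed control untreated replicates 1 and 2, floxed control Aldara replicate 2 and Il12rb2-deleted Aldara replicates 2 and 3. Their summed level overlapped between treatments, at 2085 to 4870 CPM untreated and 2009 to 3936 CPM after Aldara.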
